A study of Mus musculus with 22 samples.

Results

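The MYC, MAX and MXD network was followed here through 10 genes: Myc, Mycn, Max, Mlx, Mxd1, Mxd3, Mxd4, Mxi1, Mnt and Mga. They were chosen by symbol, and all 26 probe sets that the array's annotation pairs with 1 of these symbols and no other were used, out of 18193 genes on the array. Max and Myc have 1 probe set each, Mlx, Mxi1 and Mnt have 2, Mycn, Mxd1 and Mxd3 have 3, Mxd4 has 4 and Mga has 5.

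RNA of 22 mouse samples was measured on Affymetrix arrays. A2C12 is a cell line grown from a lung tumour of a mouse transgenic for both c-myc and c-raf on a C57BL/6 background. Its side population (SP), the cells that keep out the dye Hoechst (5 µg/ml, 90 min), was collected by flow sorting. The 6 cell samples were 3 of untreated cells and 3 of cells exposed to a monoclonal antibody against mouse EpCAM, an epithelial adhesion protein, at 100 µg/ml for 48 h. The other 16 samples were lungs from C57BL/6 mice without transgenes, of which 8 carry a male and 8 a female label. Ages are not stated in the labels.

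All cell samples come from 1 line that carries the c-myc transgene, and no unsorted A2C12 cells are among the samples. The promoter and the species of the transgene are not given in the sources used here. Whether the Myc probe set detects transcripts of the transgene was not checked here, so its reading may be of the endogenous gene alone or of both. Whether the labelled biological replicates of the line came from separate cultures is not stated, so the p-values measure the spread between these samples. In the comparisons with lung that spread is shared over all arrays, and the lungs contribute most to it.

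MYC and its relative MYCN are transcription factors that bind DNA only as a pair with MAX. These pairs recognise a short DNA word, the E-box, and raise transcription of genes for ribosomes, nucleotides, metabolism and cell division. The MXD proteins, MXI1 and MNT also pair with MAX, bind the same word and recruit the SIN3 and histone deacetylase corepressors, and MXD genes are typically switched on as cells leave the cell cycle. MLX is a parallel partner that serves MXD1, MXD4, MNT and the glucose-sensing factors MLXIP (MondoA) and MLXIPL. MGA is a large protein that pairs with MAX inside a Polycomb complex.

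Because all of these proteins meet at the E-box CACGTG, which reads the same on both strands, the promoters of the members were searched for it. The RefSeq windows (GRCm38.p6) run from 250 bases before to 50 after a listed start site, and 9 of the 10 members have at least 1. CACGTG was present for 4 of these 9 genes (44.4%), compared with 2187 of 27025 genes (8.09%) with any window. The 4 stretches below show the word in capitals with its flanks, from 5′ to 3′ on the gene's strand.
Max, chr12:76962234-76962263, minus strand: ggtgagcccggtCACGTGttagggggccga
Mlx, chr11:101087238-101087267, plus strand: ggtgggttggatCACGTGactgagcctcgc
Mxd4, chr5:34187912-34187941, minus strand: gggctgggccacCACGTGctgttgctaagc
Mnt, chr11:74830789-74830818, plus strand: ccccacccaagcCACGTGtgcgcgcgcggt

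The first base of the word lies at -3 for Max, -40 for Mlx, -219 for Mxd4 and -123 for Mnt, counted from the listed start site. The Max and Mlx stretches fall inside the annotated span of the gene, the Mnt stretch falls partly inside it, and the Mxd4 stretch lies outside it. Of the variant words, searched on both strands, CACGCG was in the Mga window only and CATGTG in a window of Mxi1 only, against 10.5% and 15.9% of all genes. These matches describe letters in a window and no binding was measured.

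The deposited intensities, which are linear, were analysed as log2(intensity + 16) after quantile normalization, so log2 changes below are on that scale and understate the change of dim probe sets. A probe set was called different between cells and lung when limma's Benjamini-Hochberg adjusted p was under 0.05 and the change was at least 2-fold. Levels of different probe sets cannot be ranked against each other, because each binds its own target with its own strength.

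Cell and lung arrays differed as a whole. Array medians were 39.4 to 40.7 for cells and 47.9 to 54.6 for lung, and the dap control, a spiked-in RNA, read 438 to 761 for cells against a maximum of 3.70 for lung. The Gapdh 3′ to 5′ ratio, a sign of RNA quality, was -0.13 to 0.07 (log2) on the untreated arrays and 0.22 to 1.01 on the lung arrays. With antibody it was -0.12 to 0.40, replicate 2 being the high one, and its part in the results was not tested. Preparation and sample type cannot be told apart here. Of the arrays labelled male, 2 (male 3 and male 4) went against their label in Xist and Uty. All member calls against lung were the same without them, 9 of 9 for untreated and 8 of 8 for antibody-treated cells.

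The cells differed from lung in cell content as well. Lung epithelial markers summed to 181 to 248 in untreated and to 250 to 286 in treated cells, against 38442 to 48728 in lung, with Epcam at a mean of 3.19 in untreated cells by the probe set that stands for it. That set was lower than lung by 5.36 on the log2 scale, while a second Epcam set of the cross-hybridizing kind had a log2 change of 0.74. Sftpc at 16.6 and Nkx2-1 at 14.3 lay below the arrays' 40th percentiles, and Cdh1 read 107 against 3055 in lung, in a line labelled as a lung tumour. Endothelial markers summed to at most 65.6 and leukocyte markers to at most 48.2 on any cell array. The sums of the mesenchymal markers overlapped, at 11064 to 14712 in cells and 13297 to 19608 in lung. Among these markers Col1a1 was called higher (log2 change 1.16) and Pdgfra lower (-2.49) in untreated cells, and 3 were called neither.

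Myc and all 3 Mxd3 sets were higher in untreated cells than in lung. Of the tested sets, 2 of 4 of Mxd4, 2 of 3 of Mxd1 and 1 of 2 of Mga were lower. Mycn, Max, Mlx, Mxi1 and Mnt had no probe set that was called. Of the 26 probe sets 23 were bright enough to test: 4 were called higher, 5 lower and 14 neither. Among all 32525 probe sets tested, 20.1% were called higher and 19.7% lower. A set that is bright on 1 side only had to differ to be tested, as was so for 2 of the 23. The other 21, above the array's 40th percentile on arrays of both sides, had 3 higher and 5 lower. The median change of the tested members was -0.17, beside 0.14 over all tested probe sets.

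**Figure D1:**
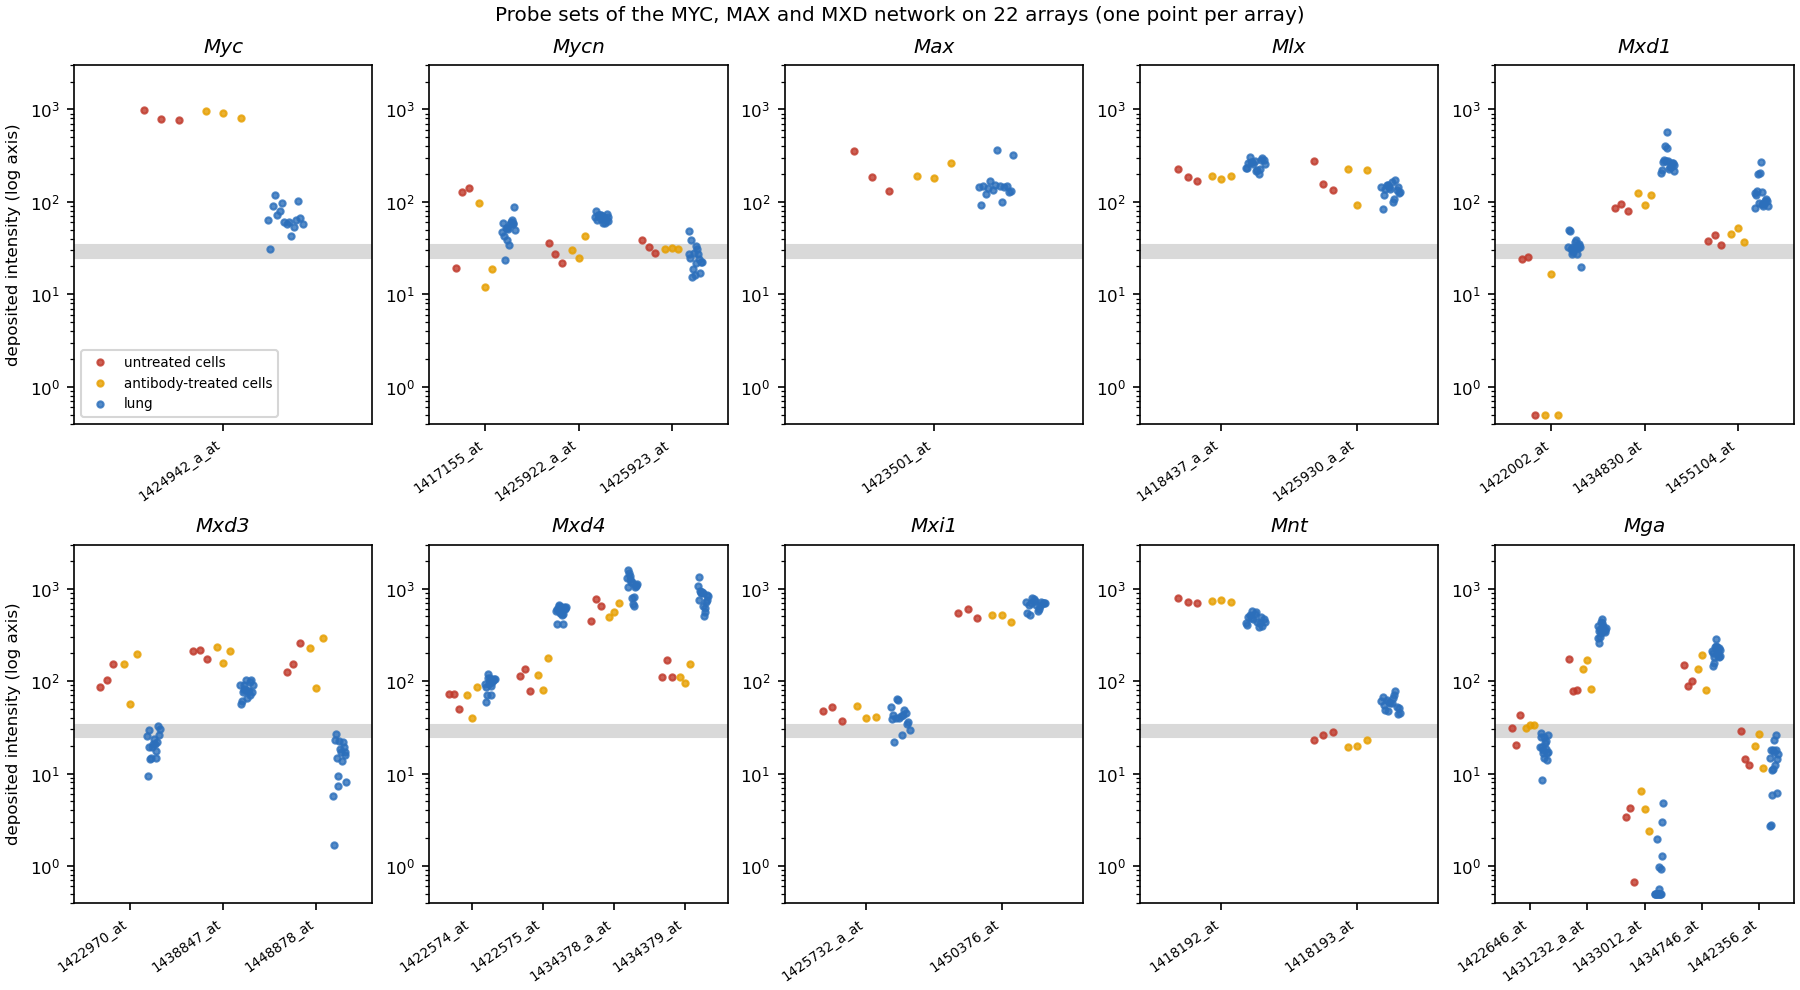
Deposited intensity (log axis) of the 26 member probe sets, 1 panel per gene and 1 point per array: untreated cells, antibody-treated cells and lung. The grey band spans the arrays' 40th percentiles (24.6 to 33.7), and values under 0.5 are drawn at 0.5. Myc and all 3 Mxd3 sets lie higher in both cell groups than in lung without overlap, and 2 of the 4 Mxd4 sets lie lower without overlap.

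Myc (Entrez 17869, chr15:61985341-61990361), the network's namesake activator, read 982, 778 and 771 in the 3 untreated samples and 952, 915 and 797 in the antibody-treated samples. In the 16 lungs it ran from 30.6 through a median of 63.6 to 120. All 6 cell samples lay far above the highest lung, with no overlap. The log2 change was 3.46 ± 0.21 (SE, n = 3 against 16; limma adjusted p = 2.04e-13), an 11.0-fold difference on the offset scale. On 15 of the 16 lung arrays the set read above the array's 40th percentile.

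Mycn (Entrez 18109, chr12:12936093-12941836), which is best known from embryonic tissues and neuroblastoma, was not called by any of its 3 probe sets. Set 1417155_at read 19.5, 128 and 141 in untreated cells and 97.8, 12.1 and 19.0 in antibody-treated cells, around a lung range of 23.5 to 87.8 with a median of 52.2. Within each cell group, every reading thus lay either above all lungs or below all lungs. Its log2 change in untreated cells was 0.73 ± 0.34 (adjusted p = 0.0533), and it became 1.44, a call, without untreated replicate 1.

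The other Mycn sets were dim in the cells. Set 1425922_a_at had a mean of 28.3 ± 6.76 in untreated cells (SD, n = 3), against 68.1 ± 5.82 in lung (SD, n = 16), with no overlap and a log2 change of -0.69 ± 0.12 that stayed under 2-fold. Set 1425923_at had a log2 change of 0.46 ± 0.16 at a mean of 33.1 in untreated cells and 26.0 in lung. Over the 16 lungs these 2 sets had a Pearson correlation of 0.58, whereas 1417155_at had -0.16 and -0.23 with them.

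Max (Entrez 17187, chr12:76937269-76962323), the common partner, was not called in either cell group and was uneven within the groups. It read 357, 186 and 131 in untreated cells, 193, 181 and 263 in antibody-treated cells, and 92.0 to 367 with a median of 145 in lung. The untreated sample at 357 and the lungs female 1 (367) and female 8 (317) were the high readings, and the groups overlapped. The log2 change of untreated cells against lung was 0.64 ± 0.26 (adjusted p = 0.0296), below the 2-fold requirement.

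Mlx (Entrez 21428, chr11:101086707-101092207), the alternative partner, was not called either. Its set 1418437_a_at had means of 192 ± 29.7 in untreated cells and 256 ± 31.5 in lung, a log2 change of -0.17 ± 0.11. Its set 1425930_a_at had means of 189 ± 78.5 and 134 ± 23.3, a log2 change of 0.65 ± 0.19. These sets thus differed in sign, and over the lungs their correlation was 0.0008.

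Mxd3 (Entrez 17121, chr13:55325170-55329900) is the MXD member associated with dividing cells, in contrast to its relatives. Set 1438847_at read 212, 219 and 172 in untreated cells and 236, 155 and 211 in antibody-treated cells, against 56.9 to 104 with a median of 78.4 in lung. Every cell sample lay above every lung. The log2 change in untreated cells was 1.41 ± 0.13 (adjusted p = 3.99e-10).

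The other Mxd3 sets were also higher in the cells, from a lung signal mostly below the arrays' 40th percentiles. Set 1422970_at read 86.8, 102 and 152 in untreated cells and 9.42 to 32.4 in lung, and set 1448878_at read 124, 154 and 256 in untreated cells and 1.67 to 26.8 in lung. In lung they lay above the array's 40th percentile on 1 and 0 of the 16 arrays, respectively. Their log2 changes were 2.05 ± 0.21 and 2.83 ± 0.25, and the offset sets these sizes: 2.71 and 3.87 with an offset of 1, and 1.22 and 1.74 with an offset of 64. Set 1448878_at was tested only because the cells were bright, so it had to differ, and leaving out 1 cell sample removes it from the test.

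The proliferation markers were higher in the cells beside Mxd3. All 5 measured (Mki67, Top2a, Pcna, Mcm2 and Cdk1) were called higher, with a median log2 change of 3.28, and their sum was 11837 to 14616 in untreated cells and 2106 to 3483 in lung. Their part in the Myc and Mxd3 differences was not tested.

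Mxd4 (Entrez 17122, chr5:34176580-34187710), a repressive partner of MAX and MLX found mostly in differentiated tissue, was lower in the cells in 2 of its 4 sets. Set 1434379_at read 109, 169 and 110 in untreated cells and 110, 94.6 and 154 in antibody-treated cells, against 510 to 1343 with a median of 841 in lung. Set 1422575_at read 113, 134 and 78.1 in untreated cells and 116, 79.9 and 176 in antibody-treated cells, against 411 to 662 with a median of 596 in lung. In both sets every lung exceeded every cell sample.

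The log2 changes of these Mxd4 sets in untreated cells were -2.31 ± 0.17 (adjusted p = 6.26e-12) and -2.02 ± 0.16 (adjusted p = 2.50e-11). The remaining sets, 1434378_a_at and 1422574_at, overlapped with lung and changed by -0.75 ± 0.17 and -0.13 ± 0.15. Over the lungs 1434378_a_at followed 1434379_at (r = 0.94), while 1422574_at did not follow it (r = -0.32). In bulk tissue and sorted cells alike, fewer cells of a type that carries a transcript and less transcript per cell cannot be told apart.

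Mxd1 (Entrez 17119, chr6:86647044-86669234), the founding MXD repressor and abundant in mature neutrophils, was lower in untreated cells in 2 of its 3 sets. Set 1434830_at read 86.1, 95.3 and 79.8 in untreated cells and 123.5, 91.4 and 120 in antibody-treated cells, against 203 to 568 with a median of 262 in lung. The groups did not overlap, and the log2 change was -1.22 ± 0.17 in untreated cells (adjusted p = 5.90e-07). Set 1455104_at followed with means of 38.5 ± 5.05 and 127 ± 51.9 and a log2 change of -1.06 ± 0.20.

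The latter call rests on the bright lungs: without the arrays male 5, male 7 and male 8 the change of 1455104_at was -0.91, under 2-fold. With an offset of 64 both calls ended, at -0.97 for 1434830_at and -0.70 for 1455104_at. The third set, 1422002_at, lay above the 40th percentile on no cell array and on 10 of 16 lung arrays, so it was tested through lung only. Its log2 change in untreated cells was -0.57 ± 0.23, and -0.08 without untreated replicate 3, which read 0.004.

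**Figure D2:**
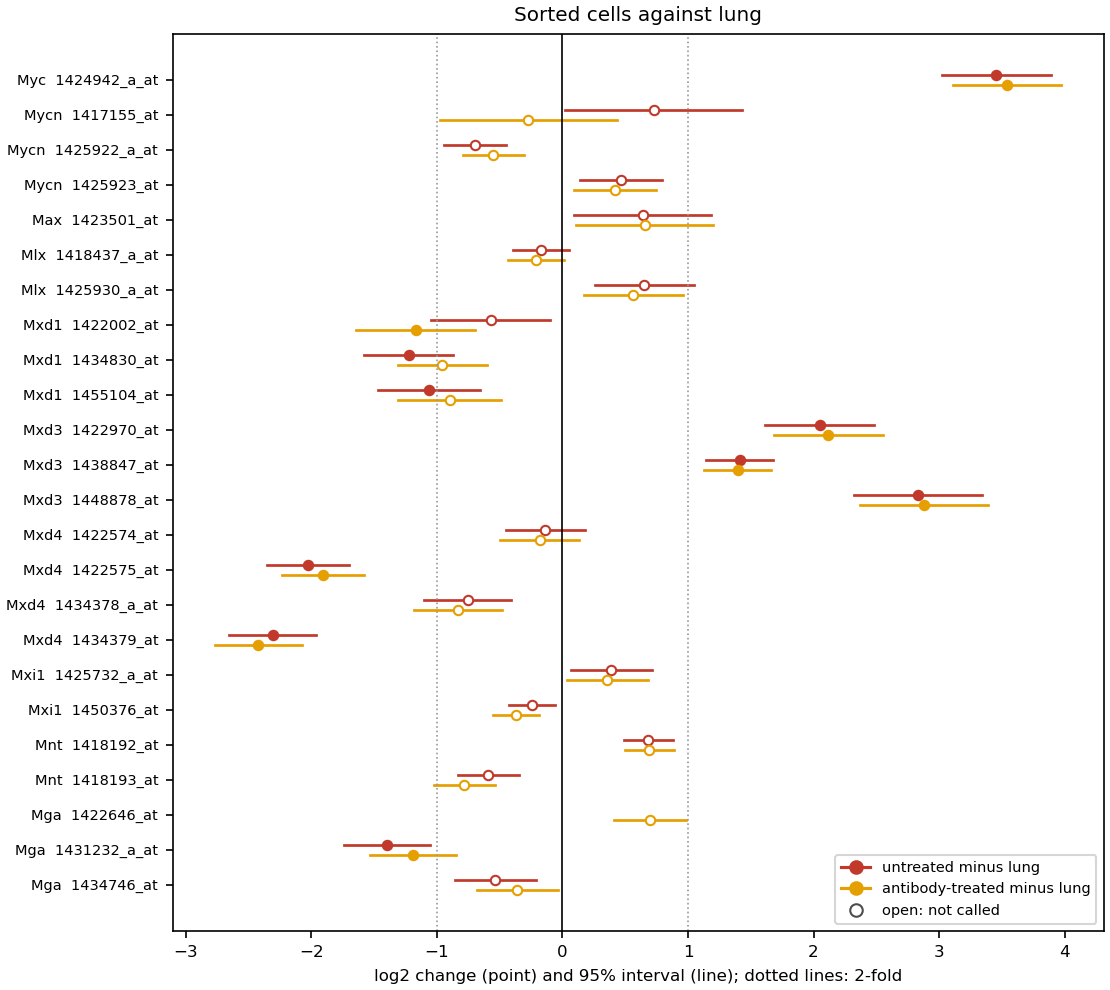
Log2 change against lung (horizontal axis) for each tested member probe set (vertical axis), untreated cells and antibody-treated cells, with 95% intervals as lines. Filled points were called and open ones were not, and dotted lines mark 2-fold. Myc at 3.46 and Mxd4 1434379_at at -2.31 are the ends of the range for untreated cells.

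Mxi1 (Entrez 17859, chr19:53310128-53373293), another MAX-binding repressor, lay within 2-fold of lung. Set 1450376_at read a mean of 545 ± 60.1 in untreated cells, 490 ± 49.4 in antibody-treated cells and 674 ± 75.7 in lung, with a log2 change of -0.24 ± 0.09 in untreated cells. Set 1425732_a_at changed by 0.39 ± 0.16. The 95% intervals of both, -0.42 to -0.06 and 0.07 to 0.71, lie inside 2-fold.

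Mnt (Entrez 17428, chr11:74830806-74845725), the repressor expressed in most cells regardless of division, had sets of opposite sign. Set 1418192_at read 792, 715 and 703 in untreated cells and 728, 759 and 710 in antibody-treated cells, against 382 to 571 with a median of 471 in lung. All 6 cell samples were above all 16 lungs, yet the log2 change of 0.68 ± 0.10 in untreated cells (adjusted p = 5.39e-07) was 1.61-fold and so was not called. Set 1418193_at had means of 25.8 ± 2.46 in untreated cells and 57.9 ± 9.73 in lung, no overlap, and a log2 change of -0.59 ± 0.12.

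Mga (Entrez 29808, chr2:119872503-119970129) was lower in the cells by set 1431232_a_at, which read 175, 77.7 and 80.7 in untreated cells and 134, 167 and 83.0 in antibody-treated cells. The lungs ran from 259 through 355 to 471, above every cell sample. The log2 change in untreated cells was -1.40 ± 0.17 (adjusted p = 4.55e-08). Set 1434746_at changed by -0.53 ± 0.16, with means of 113 ± 31.8 and 207 ± 34.4. Sets 1422646_at, 1433012_at and 1442356_at were too dim to test in untreated cells against lung. Their means were 31.5, 2.76 and 18.4 in untreated cells and 19.4, 0.85 and 13.5 in lung. These means went the other way from 1431232_a_at, with overlap between untreated cells and lung in each set. Set 1422646_at lay above the percentile needed for testing on 2 untreated arrays and 0 lung arrays.

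Counted over all 26 sets, tested or not, 5 lay entirely above lung and 7 entirely below it in untreated cells. Over all 45037 probe sets the corresponding shares were 24.1% and 25.8%. Of the 23 tested member sets, 11 had an adjusted p under 0.05 with a change under 2-fold, beside 13230 of all 32525 tested probe sets (40.7%).

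Antibody-treated cells were set against the same lungs, so the following values share their lung samples with those above. Of 24 tested sets 4 were called higher and 4 lower, where all tested probe sets gave 19.7% and 19.6%. Of the 24, 4 were bright on 1 side only, and the other 20 had 3 higher and 3 lower. These 3 higher sets again include Mxd3 1422970_at, above the percentile on 3 treated arrays but only 1 lung array. Myc (3.54 ± 0.21) and the 3 Mxd3 sets (2.12, 1.40 and 2.88) were higher. Mxd4 1422575_at (-1.91 ± 0.16) and 1434379_at (-2.42 ± 0.17) and Mga 1431232_a_at (-1.19 ± 0.17) were lower.

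Mxd1 sat at the threshold in this comparison. Sets 1434830_at and 1455104_at changed by -0.96 ± 0.17 and -0.90 ± 0.20, just under 2-fold, whereas 1422002_at changed by -1.17 ± 0.23. The latter passes the call rule, but it read 0.014, 16.7 and 0.005 in the 3 treated samples, with no array above its 40th percentile, so the offset sets its size: -3.42 with an offset of 1 and -0.45 with 64. It became -0.99 or -0.97 without antibody replicate 1 or 3. Without normalization the sets 1434830_at and 1455104_at changed by -1.20 and -1.18, and were called. For Mga 1431232_a_at the change became -0.96 without antibody replicate 3. Set 1422646_at of Mga changed by 0.70 ± 0.14 and was tested through the cells only.

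Antibody-treated cells were also set directly against untreated cells, to ask whether the network differed in the sorted fraction after exposure to the antibody. None of the 22 tested member sets was called by limma, and none had an unadjusted p under 0.05. The lowest unadjusted p was 0.102, for Mxd1 1434830_at. Over all 27474 tested probe sets 3 were called (0.0109%) and 329 had an unadjusted p under 0.05.

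The intervals bound what the 3 against 3 samples could have missed. For Myc the log2 change was 0.08 with a 95% interval of -0.24 to 0.41, and for Mxd3 1438847_at it was -0.02, from -0.40 to 0.36. For Mnt 1418192_at it was 0.01, from -0.27 to 0.29. Intervals lay inside 2-fold for 21 of the 22 sets.

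The exception was Mycn 1417155_at, 2.00-fold lower in treated cells with a log2 interval of -2.53 to 0.53, the set whose readings were split within both groups. The only set with no overlap between the cell groups was Mnt 1418193_at, at 19.2, 20.1 and 23.0 in treated cells and 23.1, 26.4 and 27.9 in untreated cells. It was too dim to test, and over all probe sets 3.36% lay lower and 2.64% higher without overlap.

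**Figure D3:**
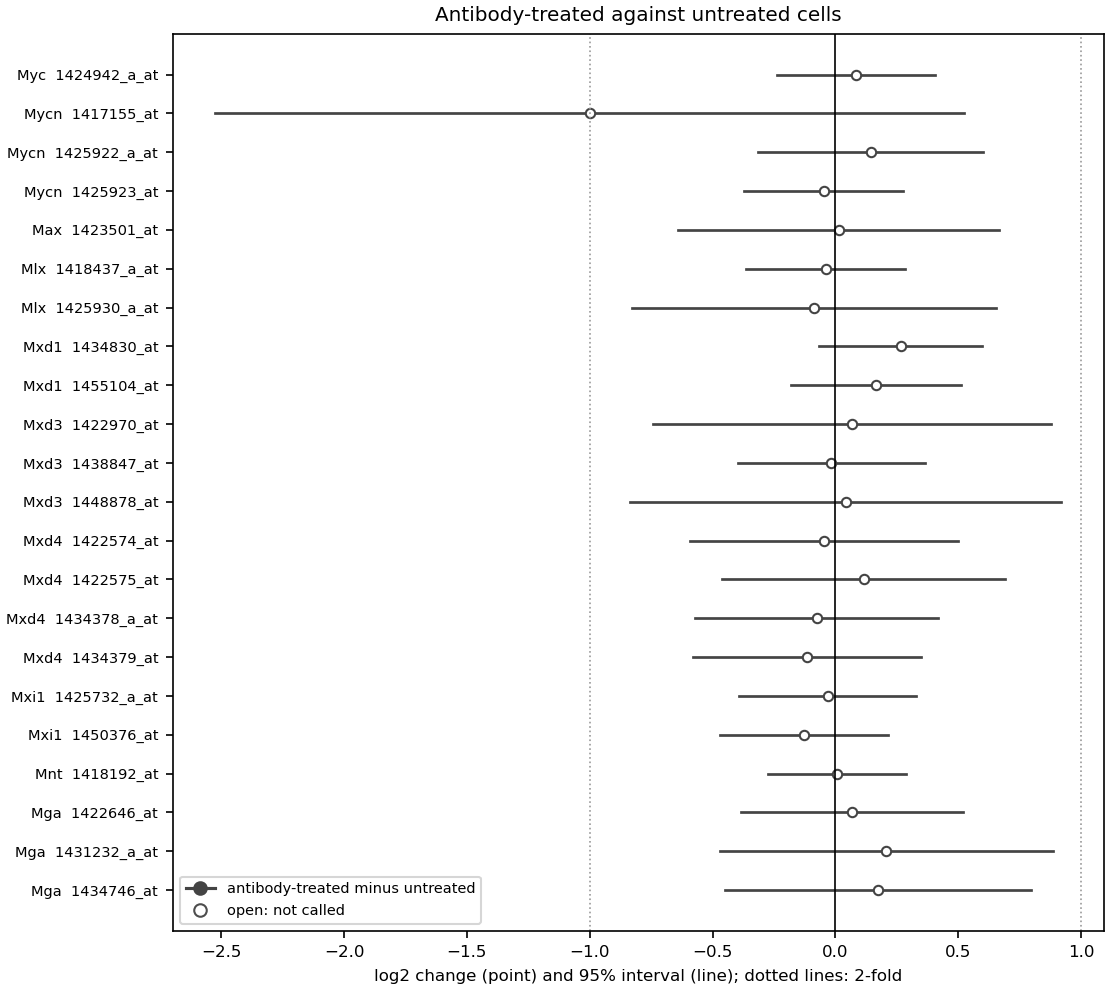
Log2 change of antibody-treated minus untreated cells (horizontal axis) for the 22 tested member probe sets (vertical axis), with 95% intervals as lines and 2-fold as dotted lines. No point is filled, as none was called, and only the interval of Mycn 1417155_at crosses the 2-fold line.

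Genes around the network were counted with 1 probe set a gene, on 15196 genes, of which 17.7% were called higher and 23.8% lower in untreated cells, with a median change of 0.01. Among the other network genes Mlxip, the MondoA partner of MLX, was lower (-1.33 ± 0.10), while Mycl (0.15 ± 0.19) and Mlxipl (-0.11 ± 0.12) were not called. Of 4 genes known to respond to MLX and MondoA, the glucose-uptake inhibitor Txnip was lower (-2.29 ± 0.16) and Klf10 was higher (1.44 ± 0.09). The Txnip relative Arrdc4 (-0.24 ± 0.18) and the pyruvate kinase gene Pklr (0.65 ± 0.20) were not called by the set that stands for each, but each has another set that was called higher, at 1.45 and 1.87. Txnip read a mean of 1162 ± 340 in untreated cells and 5349 ± 512 in lung.

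The MYC-activated growth and metabolism genes had 14 of 27 tested members higher and 0 lower by the set that stands for each, with a median of 1.00. Among those not called, Ccnd2, Eif4e, Eif4a1, Ppat, Tfrc, Ran and Hspe1 have other sets called higher. Mthfd1 has another set called lower (-1.22). Among those called higher, Cad and Ncl also have sets that were not called, down to 0.12 and -0.11. The amino acid transporter Slc7a5 (3.91 ± 0.23), the DNA repair enzyme Apex1 (3.10 ± 0.12) and the mitochondrial serine enzyme Shmt2 (2.95 ± 0.17) had the largest changes. Slc7a5 read a mean of 1090 ± 261 in untreated cells and 62.7 ± 25.2 in lung. In the RefSeq windows CACGTG was present for 8 of 23 of these genes (34.8%). The list was assembled from textbook targets, and the proliferation markers given above are higher in the same samples.

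The MYC-repressed genes had 2 of 10 higher and 2 lower by the set that stands for each, with a median of 0.22. Among those not called, Cdkn1a, Ndrg1 and Gas1 each have another set called higher, at up to 2.34. Pdgfrb has another set called lower (-1.24). The growth-arrest genes Gadd45a (2.21 ± 0.26) and Gadd45g (2.05 ± 0.22) were higher. Cebpa, a differentiation factor that lung epithelium and myeloid cells also express, was lower (-4.85 ± 0.21), as was Ndrg2 (-1.79 ± 0.15). Lung epithelial and leukocyte marker sums, given above, were lower in the same samples, and their part was not tested.

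Among MYC cofactors 2 of 12 were higher, the acetyltransferase Kat2a (1.17 ± 0.09) and the ATPase Ruvbl1 (1.10 ± 0.10), and 0 lower, with a median of 0.36. Kat2a was called by 1 of its 3 tested sets, and its other sets reached down to 0.55. Among those not called, Ep400 and Ctr9 have other sets called higher, and Bptf has another set called lower (-1.40). Of the corepressors of MXD and MNT 4 of 8 were higher and 0 lower: Rbbp4 (1.82 ± 0.30), Hdac2 (1.63 ± 0.13), Sap30 (1.49 ± 0.12) and Sin3b (1.19 ± 0.12). Other sets of Sin3b reached down to -0.54, of Rbbp4 to 0.08 and of Hdac2 to 0.96. Of the Polycomb partners of MGA 3 of 6 were higher, namely Tfdp1 (1.78 ± 0.09), Cbx3 (1.70 ± 0.15) and Pcgf6 (1.45 ± 0.14), and 0 lower. The Cbx3 set read 10.1 to 29.9 in lung, below the lung arrays' 40th percentiles (30.1 to 33.7). It was tested only because the cells were bright, so it had to differ. Another set of Pcgf6 changed by -0.57, while E2f6 and Rnf2, not called by the set that stands for each, have another set called higher.

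Of 9 tested genes of MYC protein turnover 2 were higher, 2 lower and 5 neither by the set that stands for each, with a median of -0.18. Among those not called, Gsk3b has 2 other sets called lower, down to -2.35, and Huwe1 has 1, at -1.24. The mitotic kinase Aurka (3.56 ± 0.22) and the ubiquitin ligase subunit Skp2 (3.08 ± 0.14) were higher, and Ppp2r5a (-1.82 ± 0.06), a phosphatase subunit, and Fbxw7 (-1.51 ± 0.09), the ligase subunit that marks MYC for destruction, were lower. Fbxw7 read a mean of 74.2 ± 4.20 in untreated cells and 297 ± 31.1 in lung. Aurka and Skp2 are also cell cycle genes. No gene of any of these lists was called between antibody-treated and untreated cells, where 0.0236% of 12703 genes were.

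**Figure D4:**
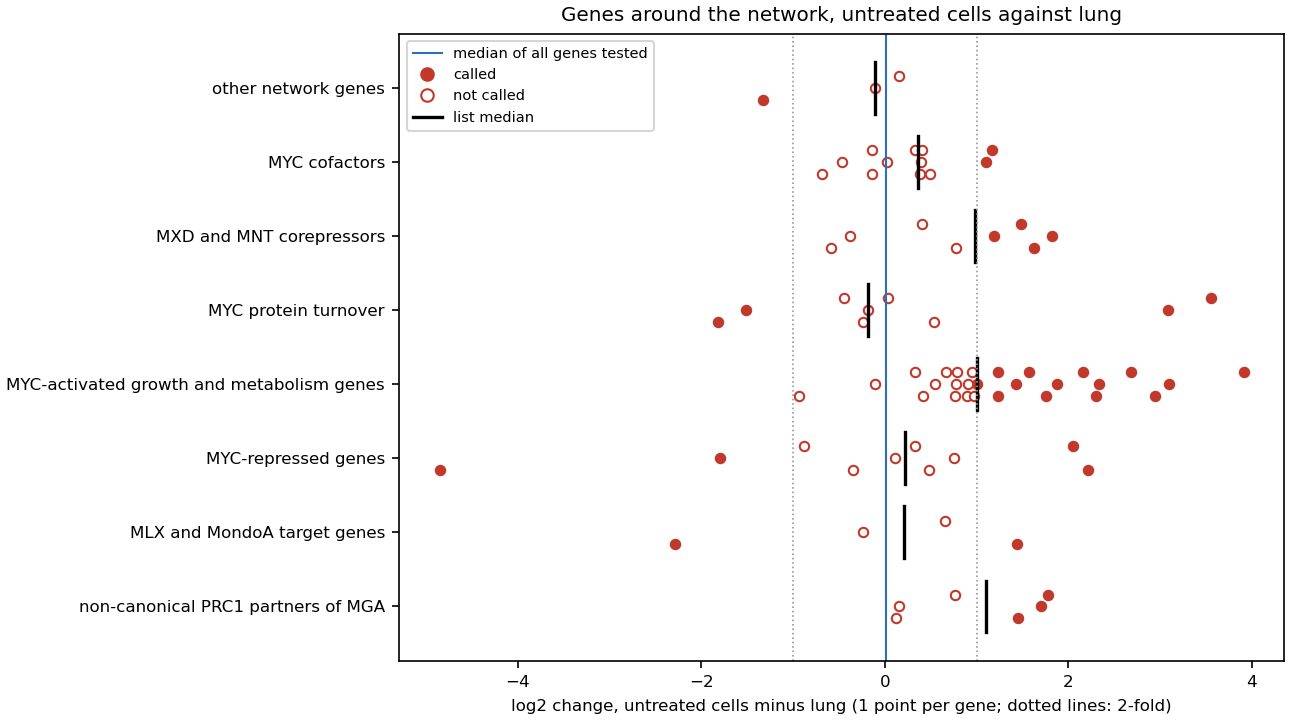
Log2 change of untreated cells against lung (horizontal axis), 1 point per tested gene, for 8 lists of genes around the network (vertical axis). Filled points were called, black bars are list medians, the blue line is the median of all genes (0.01) and dotted lines mark 2-fold. The MYC-activated genes reach from -0.93 to 3.91 with a median of 1.00.

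Within lung, Mxd1 was uneven among the arrays. Set 1434830_at read 404, 381 and 568 in the lungs male 5, male 7 and male 8, and 203 to 286 in the other lungs. Set 1455104_at ranked the same 3 arrays highest, at 200, 204 and 268, and the correlation of both sets over the 16 lungs was 0.96.

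Summed neutrophil markers (S100a8, S100a9, Csf3r and Cxcr2) were high on the same arrays, at 15380, 11406 and 16289. The lung male 2 also had a high sum, 12863, with Mxd1 at 222 by 1434830_at. The other 12 lungs had sums of 2411 to 6652. In untreated cells the sum was 87.1 to 255, and the defining receptors Csf3r and Cxcr2 were near 0. The part of neutrophils in the Mxd1 readings was not tested.

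**Figure D5:**
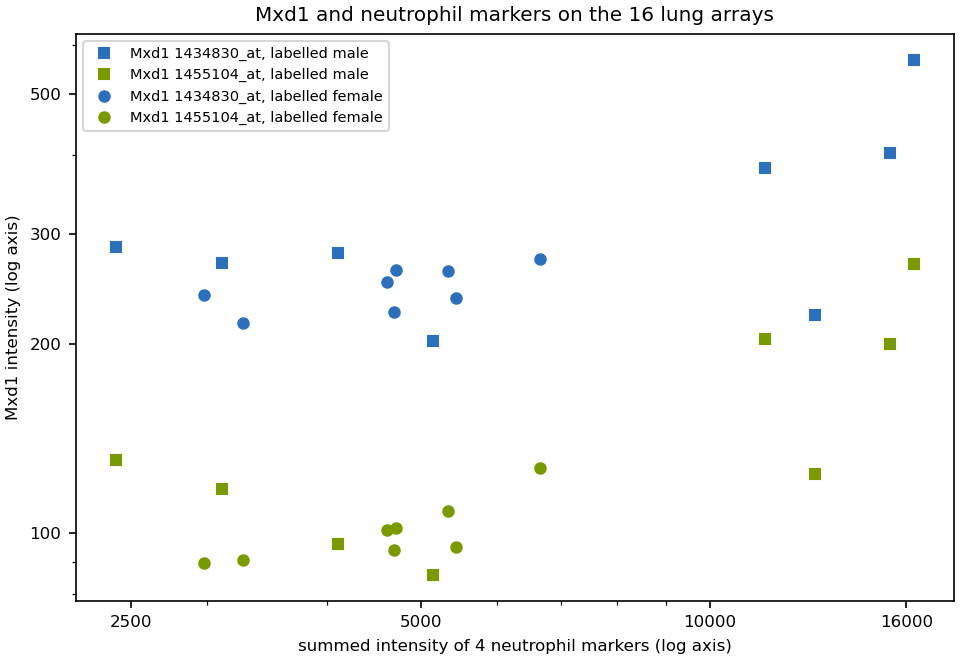
Mxd1 intensity (vertical axis, log) against the summed intensity of 4 neutrophil markers (horizontal axis, log) on the 16 lung arrays, for 2 Mxd1 probe sets, squares for arrays labelled male and circles for female. The arrays male 5, male 7 and male 8 lie at the upper right, with 1434830_at at 404, 381 and 568.

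The genes whose lung pattern was most like a member's were found by Pearson correlation over the 16 lungs, which share their preparation and normalization. For Mxd1 they were Rab44 (0.90), Trem1 (0.90) and Grina (0.88), of which Trem1 encodes a receptor of myeloid cells. Their log2 changes in untreated cells against lung were -1.34, -1.47 and 0.85, so Grina went the other way from Mxd1 1434830_at (-1.22). For Myc they were Copg1 (0.90), Ecpas (0.88) and Sephs1 (0.88). The lung male 2 gave the lowest lung reading of Myc (30.6), Copg1 (432), Ecpas (125) and Sephs1 (49.0). The part of this array in these correlations was not tested. For Mxi1 they were Mtus1 (0.90), Zcchc14 (0.89) and Mtpap (0.86). In untreated cells Mtus1 had a log2 change of -4.68 against lung, beside -0.24 for Mxi1 1450376_at.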

How the data were processed

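The deposited intensities, on a linear scale, were made by the authors with PLIER per the submitters' processing notes; its version, settings and scaling are not given in the sources used here. Control probe sets (64) were left out, which left 45037, of which 34945 are listed with 1 gene symbol, 932 with several and 9160 with none. Values were transformed as log2(intensity + 16) and quantile normalized over 22 arrays. A probe set was tested if above the array's 40th percentile on at least 3 compared arrays. The linear models of limma 3.58.1 (R 4.3.3) had a variance trend, two-sided tests and Benjamini-Hochberg adjustment over all tested probe sets. Cells against lung used 1 fit of all 22 arrays against the mean of both lung groups, to whose shared variance the lungs contribute most. The antibody comparison used the 6 cell arrays, with no fold requirement.

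For the lists, a gene was represented by the probe set with the highest mean, avoiding cross-hybridizing sets. Ncor1, Sap18, Ccnb1 and Retnlg have no set with that symbol alone in the table used, and Tert was too dim to test. Named were all members, all genes of lists of up to 4, and of longer lists the 3 largest called changes in the main direction and up to 3 called the other way; Sin3b, the fourth called corepressor, was added after its values were seen. The members and lists were chosen with earlier results of these data known. Arrays have no read depth, and their number limits the precision.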

Additional observations from a re-analysis of the deposited data

Results flagged for a closer look

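In 3 of 52 sets of lung arrays (26 probe sets, male and female labels apart) 1 array stood far from the others by Dixon's test on the log2 values, and chance gives about 1 in 20. Max read 92.03 in the lung male 2, against 121.1 to 166.1 in the other lungs labelled male. Mxd1 1455104_at read 127 in the lung female 1, against 89.71 to 108.4 in the others labelled female. Mga 1433012_at read 1.972 in the lung male 5, against 0.001065 to 0.9815, all far below the 40th percentile of the arrays.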

How the results depend on the processing

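Member results kept their side of the threshold under all alternatives run for 19 of 23 sets in untreated cells against lung, 18 of 24 in antibody-treated cells against lung and 22 of 22 between the cell groups, and none changed direction with a call. With an offset of 64 the lower sets numbered 3 in untreated and 2 in antibody-treated cells, and with an offset of 1 the latter numbered 7. With 1 probe set a gene the higher sets numbered 2 and the lower 2 in untreated cells, and 2 and 1 in antibody-treated cells. Fewer sets enter, and Mxd4 is then represented by 1434378_a_at, which was not called in untreated (-0.75) or antibody-treated cells (-0.83). Mxd1 1434830_at was called in untreated cells (-1.22) but not in antibody-treated cells (-0.96). Leaving out 1 cell sample gave 3 to 4 higher and 5 lower in untreated cells, 3 higher and 3 to 4 lower in antibody-treated cells, and 0 between the cell groups. With all probe sets of a gene averaged, MYC cofactors had 1 higher, MYC turnover genes 1 lower and MLX and MondoA targets 2 higher. The cause was not tested.

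Without normalization the median change of all probe sets in untreated cells was -0.04 and with median centring 0.23, in place of 0.14, and 40.3% and 55.1% of calls were higher, in place of 50.5%. All 9 member calls in untreated cells held under both, and in antibody-treated cells 10 and 7 sets were called, in place of 8. Settings added after seeing the data left out male 5, male 7 and male 8, or female 1 and female 8; the first ended the call of Mxd1 1455104_at in untreated cells.

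Same-numbered cell samples did not deviate together (r of 0.0018, -0.1229 and -0.0207 across probe sets), so these values gave no sign of pairing. With 3 samples a group the check cannot exclude a shared culture or sort. With the replicate block 0 member sets were called higher and 0 lower, and over all probe sets 1 higher and 2 lower, as without it. Dim sets limit what can be seen: 3 of Mga and 1 of Mnt were left untested in at least 1 comparison, as was 1 of Mxd1.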
